A study of Homo sapiens with 15 samples.

Results

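The genes described here encode cyclins, the cyclin-dependent kinases (CDKs) that cyclins activate, the CDK inhibitors, and the retinoblastoma and E2F proteins on which the G1 kinases act. The list of 47 genes was set by gene symbol with no measured value in its rule, though it was drawn up with earlier results of these data known. By role it holds 4 cell cycle kinases, 6 kinases of transcription and of the Mediator complex, 7 other CDKs, 10 cell cycle cyclins, 6 genes for transcription cyclins or for the assembly of the CDK-activating kinase, 2 cyclin G genes, 6 inhibitor genes (CDKN3, a phosphatase, among them), 3 pocket proteins and 3 E2F factors. All 47 were found among the 60510 genes of the resistance table, and 45 among the 17769 genes of the knockout table, which does not list CCNA1 and CDK20.

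K562 is a BCR-ABL1+ chronic myeloid leukemia line, and RNA from 5 groups of it was sequenced in 3 replicates each. The knockout table compares cells with the empty vector (EV), recorded as wild type and untreated, with cells in which HSP90AA1 (HSP90α-KO) or HSP90AB1 (HSP90β-KO) had been targeted. All knockout table cells expressed Cas9 by lentiviral transduction, the knockouts with a guide RNA, followed by sorting on a fluorescent protein and monoclonal selection. The resistance table compares cells resistant to PU-H71, an inhibitor of the HSP90 ATP pocket (PUHr), with parental cells. PUHr cells were picked as clones after months of culture in rising PU-H71, and the parental cells were grown in parallel in the solvent DMSO. A clone and its knockout, or a clone and its resistance, cannot be told apart in these libraries. The study describes the replicates as independent, without saying whether each came from its own culture, and p-values measure only the spread between these libraries.

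A cyclin binds its CDK and switches the kinase on, and the kinase then drives the cell through one phase of the cycle. D cyclins with CDK4 or CDK6 phosphorylate the retinoblastoma protein in G1 and release E2F factors, cyclin E with CDK2 starts S phase, and cyclins A and B with CDK1 drive mitosis. CDK7 with cyclin H and MNAT1 activates the other CDKs and phosphorylates RNA polymerase II. HSP90 and its co-chaperone CDC37 hold newly made kinases in a form that can mature, and CDK4, CDK6 and CDK7 are among the kinases named as clients. Client status concerns the protein, while only RNA was measured here. In bulk libraries, fewer cells in a phase and less RNA per cell cannot be told apart, and this holds for every phase-dependent gene below. The study assayed the cell cycle of the knockout cells separately, and that assay was not analysed here.

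Each library held between 19594381 and 26216730 reads assigned to genes, and levels are given as CPM, the reads of a gene scaled to a common library size, where 1 read was worth 0.0381 to 0.0518 CPM. The labels were checked on the targeted genes. HSP90AA1 was at 704 ± 18.7 CPM (SD, n = 3) in EV, 90.4 ± 2.34 in HSP90α-KO and 1206 ± 14.2 in HSP90β-KO, and HSP90AB1 was at 2806 ± 21.1, 3307 ± 38.8 and 1913 ± 25.1. No gene was targeted in the resistance table, where HSP90AA1 was lower in PUHr, at 1568 ± 21.0 CPM against 1712 ± 14.1 in parental. The summed level of K562 markers was 610 to 683 CPM in the knockout table (6 of 7 markers listed) and 1425 to 2194 in the resistance table (7 of 7). T cell, B cell and fibroblast markers summed to between 1.03 and 18.9 CPM, and epithelial markers, mostly KRT8, to between 475 and 1127. PUHr replicate 2 stood apart from the other PUHr replicates, with 4.23 and 3.24 times the variance of pure counting, against 1.154 to 3.18 for all other pairs of replicates.

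Levels of different genes were compared only as CPM per kilobase of exon. The exon length counted every base in any annotated exon of the gene (GENCODE 44), not the length of the transcript expressed. Ranks and shares between genes therefore depend on the annotation. In EV, CCNG1 was the most abundant at 84.5 ± 3.3 CPM per kilobase (SD, n = 3), followed by CCNA2 at 55.7 ± 1.3, CCNB1 at 48.1 ± 0.71, CDK1 at 39.3 ± 1.7 and CDK4 at 35.2 ± 0.95. CCNB2 at 30.7 ± 0.96 and CCND3 at 29.98 ± 1.99 followed and did not differ beyond their spread. At the low end were CDK18 at 0.177 ± 0.051, CCND1 at 0.232 ± 0.035 and CDK14 at 0.0868 ± 0.033. CDK14 had between 5 and 16 reads in every library of either table. CCNA1, the germline cyclin A, had 2 to 5 reads in parental and 0 to 3 in PUHr, and CDK20 had 7 to 11 and 3 to 11. These 3 genes did not pass the filter on low values in the resistance table, which left 45 members to test for the knockouts and 44 for resistance.

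Promoter sequences, from 250 bases before to 50 bases after an annotated start, were taken from RefSeq (GRCh38.p14) and matched 42 of the 47 genes with 60 windows. CCND1, CCND2, CCNE2, CDK2 and CDKN1C were not matched. A window need not lie at the outermost start of its gene. The only RB1 window (chr13:48476200-48476499) lies inside RB1, whose gene model starts at 48303744. The CDK14 windows (chr7:90709148-90709447 and chr7:90709566-90709865) lie inside CDK14, which starts at 90466424. The outermost starts of RB1 and CDK14 were therefore not searched, and the motif counts do not cover them. The first set is shown because CDK1 and the cyclins A2, B1, B2 and F, which act from S phase to mitosis, were all higher in HSP90α-KO than in EV. Capitals mark the CCAAT box (CCAAT), the cell cycle homology region (TTTGAA) and the E2F words (TTTCCCGC, TTTGGCGC, TTTCGCGC, TTTGCCGC), each searched on both strands, so that the reverse complement is in capitals too. The sequences run 5′ to 3′.
CDK1 chr10:60778228-60778527 (+ strand): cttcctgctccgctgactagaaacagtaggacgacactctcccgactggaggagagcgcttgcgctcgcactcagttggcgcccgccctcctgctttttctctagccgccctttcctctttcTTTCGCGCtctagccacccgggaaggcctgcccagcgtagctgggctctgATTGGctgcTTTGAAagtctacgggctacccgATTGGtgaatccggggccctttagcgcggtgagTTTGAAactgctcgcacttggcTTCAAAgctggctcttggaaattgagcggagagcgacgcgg
CCNA2 chr4:121823834-121824133 (- strand): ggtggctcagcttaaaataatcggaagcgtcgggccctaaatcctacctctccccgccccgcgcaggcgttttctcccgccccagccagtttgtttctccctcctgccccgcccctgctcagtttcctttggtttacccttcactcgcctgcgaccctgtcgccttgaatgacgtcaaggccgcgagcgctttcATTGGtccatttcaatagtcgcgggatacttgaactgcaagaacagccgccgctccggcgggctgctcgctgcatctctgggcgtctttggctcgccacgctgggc
CCNB1 chr5:69166900-69167199 (+ strand): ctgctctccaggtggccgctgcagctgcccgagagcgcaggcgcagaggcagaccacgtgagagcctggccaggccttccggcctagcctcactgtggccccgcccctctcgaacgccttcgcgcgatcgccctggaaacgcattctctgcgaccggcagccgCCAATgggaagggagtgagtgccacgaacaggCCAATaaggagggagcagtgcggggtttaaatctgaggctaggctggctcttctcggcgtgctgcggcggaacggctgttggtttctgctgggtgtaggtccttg
CCNB2 chr15:59104896-59105195 (+ strand): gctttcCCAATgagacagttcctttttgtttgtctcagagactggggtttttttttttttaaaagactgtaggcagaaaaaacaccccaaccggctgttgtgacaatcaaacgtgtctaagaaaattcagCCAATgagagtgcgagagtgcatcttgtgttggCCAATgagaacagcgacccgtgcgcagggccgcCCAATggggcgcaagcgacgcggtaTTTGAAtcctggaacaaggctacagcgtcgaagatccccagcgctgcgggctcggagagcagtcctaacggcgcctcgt
CCNF chr16:2429197-2429496 (+ strand): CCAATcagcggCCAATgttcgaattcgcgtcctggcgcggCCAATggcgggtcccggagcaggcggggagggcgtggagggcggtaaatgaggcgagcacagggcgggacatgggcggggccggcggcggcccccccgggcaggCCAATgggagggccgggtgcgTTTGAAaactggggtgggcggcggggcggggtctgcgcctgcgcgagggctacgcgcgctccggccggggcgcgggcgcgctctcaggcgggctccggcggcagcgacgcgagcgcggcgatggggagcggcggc

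All 6 genes of this mitotic group, CDKN3 included, held a CCAAT box in a promoter window, 4 held TTTGAA (CDK1, CCNB2, CCNF and CDKN3), and 1, CDK1, an E2F word. Among the 42 matched genes CCAAT was found in 21, TTTGAA in 8 and an E2F word in 7, which were CDK1, CDK10, CDK19, RBL1, E2F1, E2F2 and E2F3. By window, 41.7% of the 60 held CCAAT, 15.0% TTTGAA and 13.3% an E2F word, against 34.6%, 15.2% and 3.31% of 35116 promoters of the same length. The next set is shown because CDK18, CCNG2 and CDKN1A are the matched genes that passed the fold threshold in HSP90α-KO. The only motif in capitals is the CCAAT box on the reverse strand of CDK18. A match describes the letters in the window and does not show that a factor binds there.
CDK18 chr1:205504419-205504718 (+ strand): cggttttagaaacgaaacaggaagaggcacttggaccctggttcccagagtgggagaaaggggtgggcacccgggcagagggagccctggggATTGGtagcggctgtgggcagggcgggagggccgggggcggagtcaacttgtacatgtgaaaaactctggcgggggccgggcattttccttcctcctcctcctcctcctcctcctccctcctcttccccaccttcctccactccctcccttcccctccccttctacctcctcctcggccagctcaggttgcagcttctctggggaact
CCNG2 chr4:77156957-77157256 (+ strand): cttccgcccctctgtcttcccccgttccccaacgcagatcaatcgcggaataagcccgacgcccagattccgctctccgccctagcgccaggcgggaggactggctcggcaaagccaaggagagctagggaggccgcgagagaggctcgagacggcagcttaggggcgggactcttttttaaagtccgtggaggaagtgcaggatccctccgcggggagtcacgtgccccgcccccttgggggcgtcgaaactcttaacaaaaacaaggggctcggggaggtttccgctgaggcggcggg
CDKN1A chr6:36678464-36678763 (+ strand): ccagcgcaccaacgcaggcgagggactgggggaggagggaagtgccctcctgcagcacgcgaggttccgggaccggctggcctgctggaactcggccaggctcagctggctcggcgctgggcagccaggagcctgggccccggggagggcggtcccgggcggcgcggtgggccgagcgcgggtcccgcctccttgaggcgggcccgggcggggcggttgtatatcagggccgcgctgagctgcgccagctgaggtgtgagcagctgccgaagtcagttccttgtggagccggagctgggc

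In HSP90α-KO 25 of the 45 tested genes were higher and 7 lower than in EV at an adjusted p under 0.05, where 27.5% and 26.6% of all 17039 genes tested were higher and lower. Beyond a log2 fold change of 1 there were 4 higher (CCND1, CDK18, CDKN1A and CCNG2) and 0 lower, against 5.32% and 5.01% of all genes. Among genes whose mean log2 CPM was at least 1, 23 of 42 listed genes (54.8%) were higher, against 31.4% of all such genes, and 7 (16.7%) lower, against 29.4%. The median log2 fold change of the listed genes was 0.15, and -0.01 over all genes. Of the 32 calls, 27 held under all of up to 20 alternative settings in which the gene was tested.

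In HSP90β-KO 10 of 45 were higher and 8 lower than in EV, against a background of 17.2% in either direction. CDKN1A alone passed the fold threshold, in the higher direction, where 1.83% of all genes did so and 2.65% in the lower direction. The median was 0.02, and 0.00 over all genes. The split moved to 7 higher and 10 lower with each library centred on its median. With voom on the recovered reads it was 13 higher and 7 lower. The split over all genes moved the same way, from 2938 higher and 2926 lower. It was 2134 and 3673 with median centring and 3809 and 2647 with voom. Among expressed genes by the same limit, 23.8% of the listed ones were higher, against 21.1% of all, and 14.3% lower, against 19.2%. Of the 18 calls, 9 held under all of these settings. Without EV replicate 2 CDK18 joined CDKN1A beyond the threshold, and without HSP90β-KO replicate 2 CDK18 and CCND1 did.

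Both knockouts were compared with the same EV libraries, so that their values are not independent. Compared directly, HSP90α-KO was higher than HSP90β-KO for 25 genes and lower for 12, against a background of 30.1% and 29.8%. Beyond the fold threshold were 3 higher genes (CCND1, CDK18 and CCNG2) and 1 lower gene (CDKN1C), where 7.14% and 5.57% of all genes passed. At the same limit on expression, 54.8% of the listed genes were higher, against 32.9% of all, and 28.6% lower, against 33.8%. Of these 37 calls, 30 held under all settings.

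In PUHr 17 of 44 were higher and 11 lower than in parental cells, where 25.6% and 25.8% of 16503 genes were. Beyond the fold threshold CDK18 was higher (5.37% of all genes) and CDK6 and CDKN1C were lower (4.69% of all genes). The median was 0.05, and 0.00 over all genes. The split of calls moved with the scaling, to 13 higher and 14 lower with median centring. With voom on the recovered reads it was 21 higher and 7 lower. The split over all genes moved the same way, from 4221 higher and 4259 lower. It was 3514 and 5203 with median centring and 5337 and 3295 with voom. Among expressed genes 37.2% of the listed ones were higher, against 27.9% of all, and 25.6% lower, against 29.5%. Of the 28 calls, 16 held under all of up to 16 settings.

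**Figure D1:**
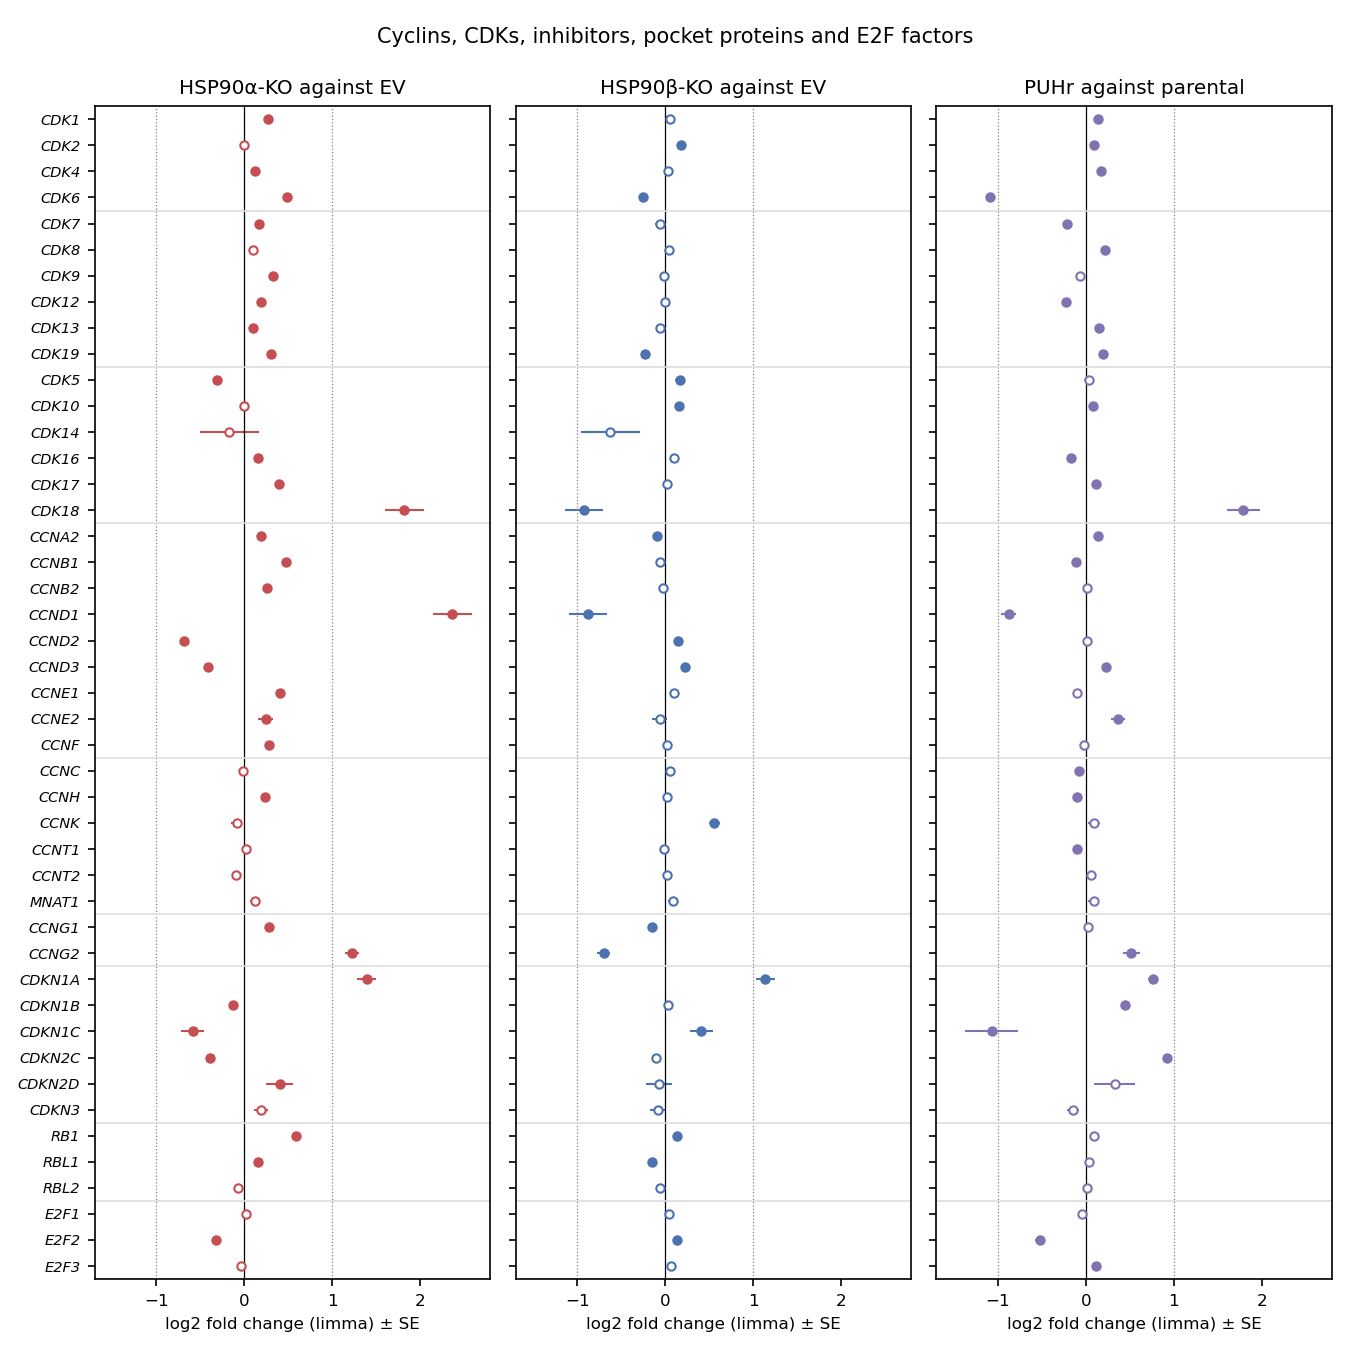
Log2 fold change from limma, with its SE as a horizontal bar, of every tested gene, ordered by role, in HSP90α-KO and HSP90β-KO against EV (3 libraries each, shared EV) and in PUHr against parental (3 libraries each). Filled points passed an adjusted p of 0.05, open points did not, and dotted lines mark -1 and 1. CCND1, CDK18 and CCNG2 lie to the right in HSP90α-KO and to the left in HSP90β-KO, and CDK6 is at -1.09 in PUHr.

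The D cyclins, which carry growth signals to CDK4 and CDK6, moved in opposite directions within HSP90α-KO. CCND1 (cyclin D1, chr11:69641156-69654474) was at 0.999, 1.01 and 1.30 CPM in the EV libraries, 6.30, 5.59 and 6.21 in HSP90α-KO and 0.381, 0.853 and 0.515 in HSP90β-KO. Each HSP90α-KO library was above, and each HSP90β-KO library below, all EV libraries. These levels rest on few reads, 21 to 34 in EV, 108 to 129 in HSP90α-KO and 8 to 20 in HSP90β-KO. Exons of LTO1 lie on the other strand over 10.4% of those of CCND1, and LTO1 was at 29.3 CPM in EV and 22.9 in HSP90α-KO (log2 fold change -0.36, adjusted p = 2e-06), and at -0.03 in HSP90β-KO (adjusted p = 0.75). Its part in the CCND1 value was not tested. Against EV the log2 fold change of CCND1 was 2.37 ± 0.22 (SE, adjusted p = 6.5e-10) in HSP90α-KO and -0.88 ± 0.22 (adjusted p = 0.0025) in HSP90β-KO. The difference between the knockouts was 3.24 ± 0.22 (adjusted p = 8.1e-13). With a pseudocount of 5 CPM, which weighs down low genes, the HSP90α-KO value of CCND1 was 0.85.

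CCND2 and CCND3, the D cyclins of blood cells, were the more abundant members and went the other way. CCND2 was at 119, 113 and 122 CPM in EV, 73.3, 69.8 and 77.5 in HSP90α-KO and 129, 132 and 132 in HSP90β-KO. CCND3 was at 165, 186 and 167 CPM in EV, 136, 128 and 123 in HSP90α-KO and 203, 199 and 205 in HSP90β-KO. The 3 groups did not overlap for either gene, and HSP90α-KO was the lowest. CCND2 fell by 0.68 on the log2 scale in HSP90α-KO (SE 0.039, adjusted p = 4.8e-14) and rose by 0.15 in HSP90β-KO (SE 0.039, adjusted p = 0.0048), a call of CCND2 lost without an intensity trend (adjusted p = 0.065). CCND3 fell by 0.42 (SE 0.040, adjusted p = 1.7e-09) and rose by 0.23 (SE 0.040, adjusted p = 6e-05).

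Per kilobase, CCND1 made up 0.515% ± 0.083 (SD, n = 3) of the summed D cyclin level in EV, 3.85% ± 0.19 in HSP90α-KO and 0.238% ± 0.10 in HSP90β-KO. The sum of the 3 D cyclins was 45.0 ± 1.5 CPM per kilobase in EV, 32.9 ± 1.0 in HSP90α-KO and 51.6 ± 0.46 in HSP90β-KO. CCND3 held between 66.6% and 68.2% of it in each of these groups.

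In the comparison with parental cells, CCND1 was at 18.5, 20.7 and 19.98 CPM in parental and 10.2, 12.3 and 9.65 in PUHr, with 217 to 493 reads per library. The groups did not overlap, and CCND1 fell by 0.88 on the log2 scale (SE 0.086, adjusted p = 7.6e-07). CCND2 was at 60.6 ± 1.22 CPM in parental and 61.0 ± 1.37 in PUHr and did not pass (log2 fold change 0.01 ± 0.035, adjusted p = 0.85). CCND3 rose from 227 ± 3.92 to 267 ± 3.53 CPM (log2 fold change 0.23 ± 0.024, adjusted p = 1.5e-06). The share of CCND1 in the D cyclin sum was 8.11% ± 0.54 in parental and 4.01% ± 0.49 in PUHr. The 2 tables were normalized separately, so that the higher CCND1 level of parental cells over EV was not tested.

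**Figure D2:**
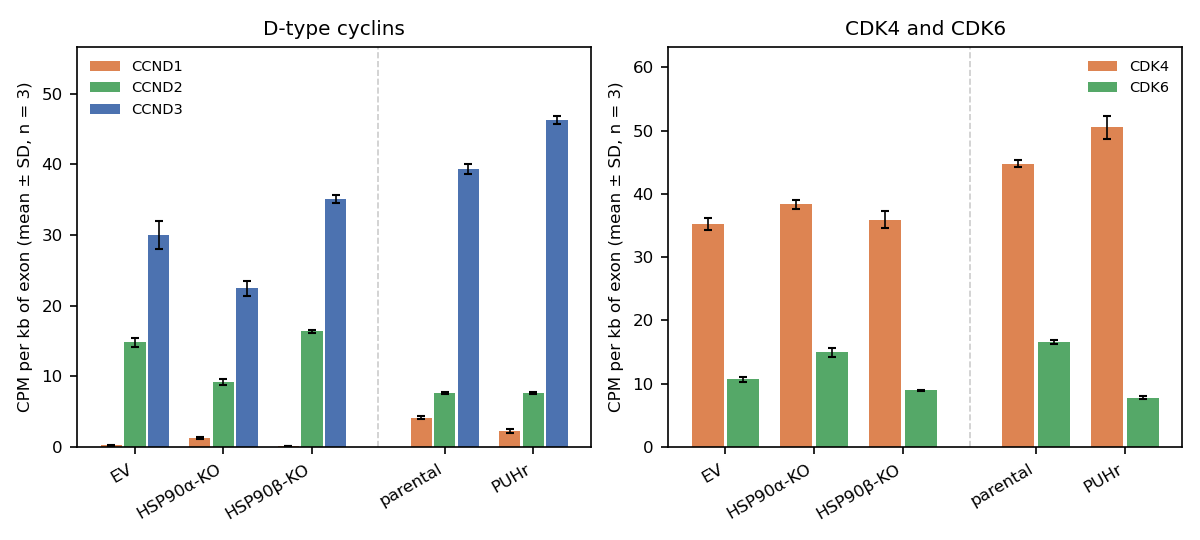
Level in CPM per kilobase of exon of the D cyclins (left) and of CDK4 and CDK6 (right) in the 5 groups, bars at the mean of 3 libraries with the SD; the dashed line separates the 2 tables, which were normalized separately. CCND3 is the tallest D cyclin bar in every group, and CDK6 drops from 16.6 in parental to 7.81 in PUHr.

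CDK4 and CDK6, the partners of the D cyclins and clients of HSP90 as proteins, differed in how far their RNA moved. CDK6 (chr7:92604921-92836573) was at 134, 126 and 132 CPM in EV, 187, 173 and 189.8 in HSP90α-KO and 108, 110.5 and 110.2 in HSP90β-KO. No library of a group overlapped those of another. CDK6 rose by 0.49 on the log2 scale in HSP90α-KO (SE 0.037, adjusted p = 1.2e-11) and fell by 0.25 in HSP90β-KO (SE 0.037, adjusted p = 3.6e-06), and the knockouts differed by 0.74 ± 0.037 (adjusted p = 1.2e-15). In the resistance table it was at 208, 200.3 and 200.3 CPM in parental and 93.1, 99.1 and 94.5 in PUHr. The log2 fold change was -1.09 ± 0.031 (adjusted p = 1e-12), which is 52.9% lower and the largest fall among the members with at least 100 reads in every library. It passed both thresholds under every alternative run.

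CDK4 (chr12:57747727-57756013) moved by less. It was at 110.4, 111 and 106 CPM in EV, 117, 121 and 118 in HSP90α-KO and 107, 113 and 115 in HSP90β-KO. The HSP90α-KO libraries lay above those of EV, and those of HSP90β-KO overlapped them. The log2 fold change was 0.12 ± 0.036 (adjusted p = 0.0059) in HSP90α-KO and 0.03 ± 0.036 (adjusted p = 0.58) in HSP90β-KO. The call of CDK4 in HSP90α-KO was lost with quantile normalization (adjusted p = 0.13) and with voom on the recovered reads (adjusted p = 0.060). The direct difference between the knockouts was 0.09 ± 0.036 (adjusted p = 0.029) and was lost under the same settings and 3 others (adjusted p up to 0.58). In PUHr CDK4 was at 152, 163 and 154 CPM against 138, 140.4 and 137 in parental, above in all 3 libraries, with a log2 fold change of 0.17 ± 0.030 (adjusted p = 0.0002).

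CDK6 thus made up 23.3% ± 0.86 (SD, n = 3) of the CDK4 and CDK6 level per kilobase in EV, 28.1% ± 1.4 in HSP90α-KO and 19.9% ± 0.41 in HSP90β-KO. In parental cells its share was 27.0% ± 0.55 and in PUHr 13.4% ± 0.048. Exons of CDK4 overlap TSPAN31 on the other strand over 44.2% of their length. TSPAN31 was at 21.3 to 25.9 CPM in the 5 groups and its log2 fold change was -0.15 in HSP90α-KO, 0.10 in HSP90β-KO and -0.19 in PUHr. The kit kept the strand, but the strand setting of the counting is not given in the sources used here.

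CDK7, cyclin H (CCNH) and MNAT1 form the CDK-activating kinase, and their RNA moved by less than 20% in every comparison. CDK7 (chr5:69234795-69277430) was at 52.1, 45.1 and 47.5 CPM in EV, 54.6, 53.2 and 54.4 in HSP90α-KO and 44.6, 47.3 and 46.4 in HSP90β-KO. HSP90α-KO lay above every EV library and HSP90β-KO overlapped EV. CDK7 rose by 0.17 on the log2 scale in HSP90α-KO (SE 0.048, adjusted p = 0.005) and did not pass in HSP90β-KO (-0.06 ± 0.048, adjusted p = 0.35). The knockouts differed by 0.23 ± 0.048 (adjusted p = 0.0002). For resistance, CDK7 was at 34.2, 36.2 and 35.5 CPM in parental and 31.5, 29.7 and 30.2 in PUHr. The groups did not overlap, and CDK7 fell by 0.21 on the log2 scale, or 13.8% (SE 0.045, adjusted p = 0.0011).

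Cyclin H rose in HSP90α-KO from 63.2 ± 3.29 to 74.4 ± 3.42 CPM (log2 fold change 0.24 ± 0.043, adjusted p = 4.5e-05). In HSP90β-KO it was at 64.0 ± 0.242 (0.02 ± 0.043, adjusted p = 0.77). In PUHr CCNH was lower than in parental, at 56.8 ± 2.39 against 60.9 ± 1.30 CPM (-0.10 ± 0.039, adjusted p = 0.044). That call of CCNH was lost with voom on the recovered reads (adjusted p = 0.36), without the filter (adjusted p = 0.27), without an intensity trend (adjusted p = 0.12) and when any parental replicate or PUHr replicate 3 was left out. MNAT1, which assembles the complex, did not pass in any comparison. Its levels were 20.7 ± 0.773 CPM in EV, 22.5 ± 0.923 in HSP90α-KO, 22.0 ± 0.313 in HSP90β-KO, 22.3 ± 0.891 in parental and 23.7 ± 1.56 in PUHr, and its adjusted p ranged from 0.08 in HSP90α-KO to 0.64 in the direct comparison. Exons of CCNH overlap RASA1 on the other strand over 12.9% of their length, and RASA1 had a log2 fold change of -0.19 in PUHr.

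**Figure D3:**
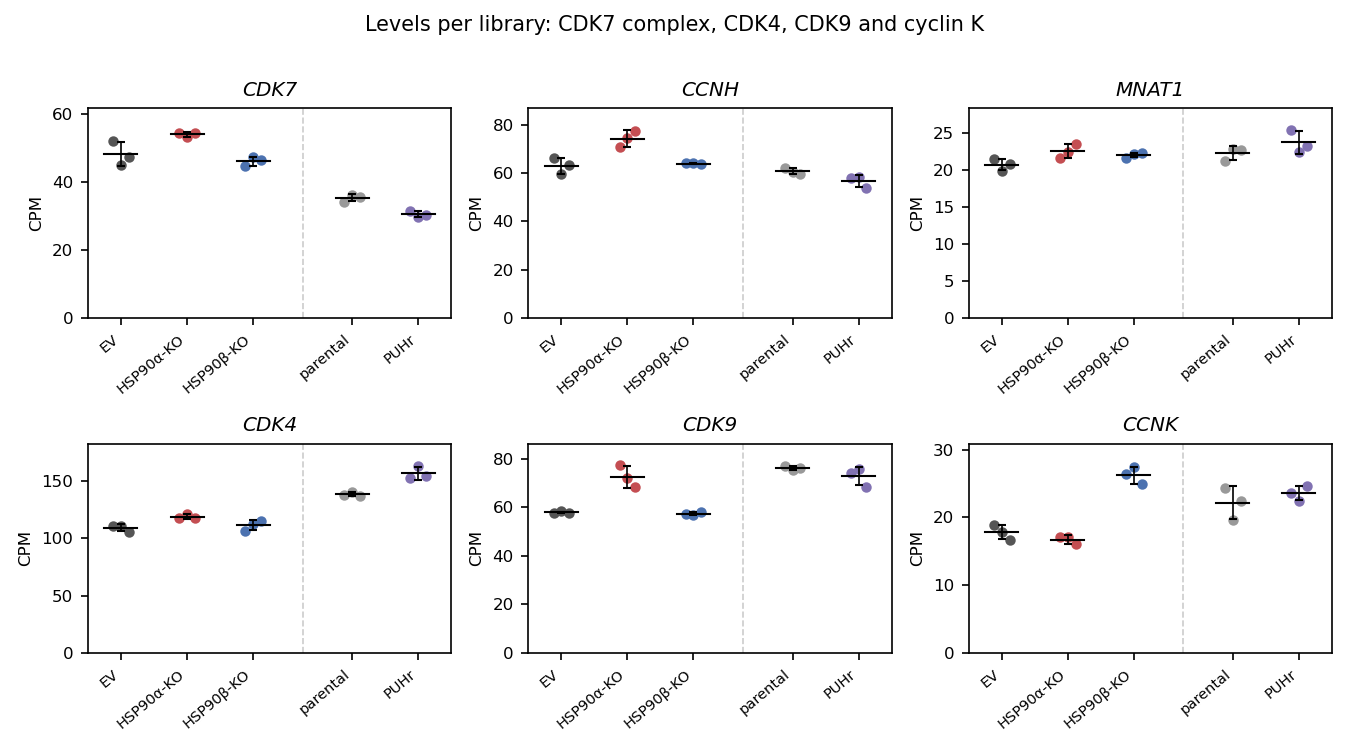
Level in CPM of CDK7, CCNH, MNAT1, CDK4, CDK9 and CCNK in each library (points), with the group mean and SD (n = 3); axes start at 0 and the dashed line separates the 2 tables. The CDK7 points of PUHr, at 29.7 to 31.5, lie below those of parental, and the CCNK points of HSP90β-KO lie above all others of the knockout table.

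The transcription kinases act on RNA polymerase II or in Mediator. Of the 6, CDK7 included, 5 passed as higher in HSP90α-KO, where 27.5% of all genes did so. CDK9, the kinase of the elongation factor P-TEFb, was at 57.9, 58.4 and 57.6 CPM in EV and 77.4, 72.1 and 68.3 in HSP90α-KO, which did not overlap. It rose by 0.32 on the log2 scale (SE 0.043, adjusted p = 4.6e-07) and was at 57.4 ± 0.687 in HSP90β-KO (-0.01 ± 0.043, adjusted p = 0.84). CDK19, a Mediator kinase, rose by 0.30 in HSP90α-KO (SE 0.047, adjusted p = 4.3e-06), fell by 0.23 in HSP90β-KO (SE 0.047, adjusted p = 0.00028) and rose by 0.20 in PUHr (SE 0.051, adjusted p = 0.0047, and 0.076 without the filter). CDK8, its close relative, did not pass in either knockout (0.11 and 0.04) and rose by 0.22 in PUHr (SE 0.039, adjusted p = 0.00025).

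CDK12 and CDK13, the cyclin K kinases of elongation, parted in PUHr. CDK12 fell from 230.3 ± 4.06 to 197 ± 0.853 CPM (log2 fold change -0.23 ± 0.024, adjusted p = 1.8e-06). CDK13 rose from 74.8 ± 0.996 to 83.0 ± 4.57 CPM (0.15 ± 0.039, adjusted p = 0.0052), a call lost without the filter (adjusted p = 0.15) and without an intensity trend (adjusted p = 0.058). In HSP90α-KO both were higher, CDK12 by 0.19 and CDK13 by 0.10, the call of CDK13 being lost under 11 of 20 settings (adjusted p up to 0.24).

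Of the 5 transcription cyclins, cyclin K had the only call in HSP90β-KO, where 17.2% of all genes were higher and 17.2% lower. CCNK (chr14:99481169-99535044) was at 18.8, 17.8 and 16.7 CPM in EV, 17.0, 17.1 and 16.0 in HSP90α-KO and 26.4, 27.4 and 24.9 in HSP90β-KO. The HSP90β-KO libraries stood clear of both other groups, which overlapped. The log2 fold change in HSP90β-KO was 0.56 ± 0.063 (adjusted p = 6.7e-08), in HSP90α-KO -0.09 ± 0.063 (adjusted p = 0.25) and in PUHr 0.09 ± 0.072 (adjusted p = 0.30). Exons of CCNK overlap CCDC85C on the other strand over 59.5% of their length, and CCDC85C moved with it in HSP90β-KO (0.68, adjusted p = 1.9e-10) but rose in PUHr (0.48, adjusted p = 3.3e-07) where CCNK did not pass. Its 40 nearest expressed genes had a median of 0.21 in HSP90β-KO, and the part of either in the CCNK value was not tested. CCNT1, the P-TEFb cyclin, was slightly lower in PUHr (-0.10 ± 0.031, adjusted p = 0.017), a call of CCNT1 lost under 6 of 16 settings, voom among them (adjusted p = 0.26). CCNC of Mediator was lower there too (-0.08, adjusted p = 0.041), a call lost under 9 of 16 settings (adjusted p up to 0.58). CCNT2 did not pass against either control.

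Among the other CDKs, CDK18 showed the widest range. CDK18 (chr1:205504596-205532793), a PCTAIRE kinase, was at 1.57, 0.868 and 1.18 CPM in EV, 5.03, 4.35 and 3.85 in HSP90α-KO and 0.477, 0.725 and 0.554 in HSP90β-KO, on 10 to 103 reads. The 3 groups did not overlap. It rose by 1.82 on the log2 scale in HSP90α-KO (SE 0.22, adjusted p = 7.3e-08) and fell by 0.92 in HSP90β-KO (SE 0.22, adjusted p = 0.0016), and the knockouts differed by 2.74 ± 0.22 (adjusted p = 2.4e-11). In the resistance table it was at 0.803, 0.881 and 1.22 CPM in parental and 3.90, 3.05 and 3.65 in PUHr. The groups did not overlap, and the log2 fold change was 1.79 ± 0.19 (adjusted p = 1.5e-06). With a pseudocount of 5 CPM the value of CDK18 was 0.60 in HSP90α-KO and 0.52 in PUHr.

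CDK17, of the same family, rose in HSP90α-KO from 46.4 ± 0.545 to 61.2 ± 1.37 CPM (0.40 ± 0.042, adjusted p = 7.6e-09) and was at 47.3 ± 1.43 in HSP90β-KO. CDK16, the third of that family, was higher in HSP90α-KO (0.15, adjusted p = 0.0032) and lower in PUHr (-0.17 ± 0.034, adjusted p = 0.00064). CDK5, a kinase best known from neurons, fell by 0.31 on the log2 scale in HSP90α-KO (SE 0.053, adjusted p = 2.3e-05) and rose by 0.17 in HSP90β-KO (SE 0.053, adjusted p = 0.015), a call of CDK5 lost with median centring (adjusted p = 0.070) and without HSP90β-KO replicate 1 (adjusted p = 0.055). CDK10 rose by 0.16 in HSP90β-KO (SE 0.041, adjusted p = 0.0027, and 0.060 without an intensity trend) and did not pass in HSP90α-KO. CDK14 did not pass in either knockout.

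Of 6 genes that act from S phase to mitosis, 5 passed as higher in HSP90α-KO, against 27.5% of all genes tested. CCNB1, the main mitotic cyclin, was at 119, 116 and 116 CPM in EV, 162, 162 and 164 in HSP90α-KO and 112, 110.3 and 114 in HSP90β-KO. The HSP90α-KO libraries did not overlap those of the other groups. It rose by 0.47 on the log2 scale (SE 0.032, adjusted p = 1.3e-12). CDK1, its kinase, was at 161, 149 and 151 CPM in EV and 181, 189 and 188 in HSP90α-KO, and rose by 0.27 (SE 0.034, adjusted p = 1.2e-07). CCNB2 rose by 0.26, CCNF, the F-box cyclin, by 0.28 and CCNA2 by 0.19, with adjusted p from 1.5e-06 to 1.9e-05. EXOSC9 overlaps 9.24% of the CCNA2 exons on the other strand. It was at 72.2 CPM in EV and 78.4 in HSP90α-KO (log2 fold change 0.12, adjusted p = 0.017), and its part in the CCNA2 value was not tested. CDKN3, a phosphatase of CDK1 and CDK2, was at 0.19 (adjusted p = 0.056).

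The same 6 genes had log2 fold changes from -0.09 to 0.06 in HSP90β-KO, where 17.2% of all genes were higher and 17.2% lower. Of the 6, 1, CCNA2, passed with a log2 fold change of -0.09 (SE 0.033, adjusted p = 0.033). That call was lost without an intensity trend and with voom (adjusted p = 0.11 in each) and when any EV replicate but the second, or HSP90β-KO replicate 1 or 2, was left out. All 6 were higher in HSP90α-KO than in HSP90β-KO, from 0.21 for CDK1 to 0.54 for CCNB1. Of all genes tested, 30.1% were higher in that comparison. The call of CDKN3 there was lost without HSP90α-KO replicate 2 (adjusted p = 0.069). In PUHr 2 of the 6 were higher (CDK1 by 0.14, adjusted p = 0.00051, and CCNA2 by 0.13, adjusted p = 0.0035) and 1 was lower. Of all genes tested there, 25.6% were higher and 25.8% lower. The CCNA2 call was lost without the filter and without an intensity trend (adjusted p up to 0.17). The lower gene was CCNB1 (-0.11 ± 0.027, adjusted p = 0.0041), a call lost with voom (adjusted p = 0.11), without the filter (adjusted p = 0.11) and without an intensity trend (adjusted p = 0.068).

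For entry into S phase, CCNE1 rose in HSP90α-KO from 32.1 ± 1.51 to 42.6 ± 2.29 CPM (0.41 ± 0.051, adjusted p = 1.4e-07), with every library above EV, and did not pass in HSP90β-KO or PUHr. CCNE2, the other cyclin E, was higher in HSP90α-KO (0.24, adjusted p = 0.017), a call lost without EV replicate 2 or HSP90α-KO replicate 2 (adjusted p up to 0.072). In PUHr CCNE2 rose from 9.74 ± 0.838 to 12.5 ± 0.459 CPM (0.36 ± 0.080, adjusted p = 0.0015). INTS8 overlaps 37.0% of the CCNE2 exons on the other strand and was far more abundant, at 86.5 CPM in PUHr and 86.2 in parental. INTS8 did not pass in PUHr (adjusted p = 0.92) or in HSP90α-KO against EV (adjusted p = 0.2). Its part in the CCNE2 values was not tested. CDK2, the cyclin E kinase, was at -0.01 in HSP90α-KO (adjusted p = 0.90), rose by 0.18 in HSP90β-KO (SE 0.040, adjusted p = 0.00088) and was 0.09 higher in PUHr (adjusted p = 0.038), the last call of CDK2 being lost under 8 of 16 settings (adjusted p up to 0.35).

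The cyclin G genes were opposed between the knockouts. CCNG2 (chr4:77157207-77433388), which restrains the cycle, was at 13.2, 11.8 and 11.8 CPM in EV, 28.4, 28.9 and 28.8 in HSP90α-KO and 7.44, 8.28 and 6.81 in HSP90β-KO. The 3 groups did not overlap. It rose by 1.23 on the log2 scale (SE 0.077, adjusted p = 2.9e-13) in HSP90α-KO and fell by 0.70 (SE 0.077, adjusted p = 3.9e-08) in HSP90β-KO, a difference of 1.93 ± 0.077 (adjusted p = 1.1e-17). In PUHr it was at 7.67, 8.82 and 8.19 CPM against 5.79, 6.08 and 5.30 in parental, without overlap, and rose by 0.52 (SE 0.097, adjusted p = 0.00041). With a pseudocount of 5 CPM the value of CCNG2 was 0.97 in HSP90α-KO, -0.46 in HSP90β-KO and 0.30 in PUHr. CCNG1 rose by 0.28 (SE 0.035, adjusted p = 1.9e-07) in HSP90α-KO and fell by 0.14 (SE 0.035, adjusted p = 0.0021, and 0.067 without an intensity trend) in HSP90β-KO, and did not pass in PUHr (0.03, adjusted p = 0.41).

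**Figure D4:**
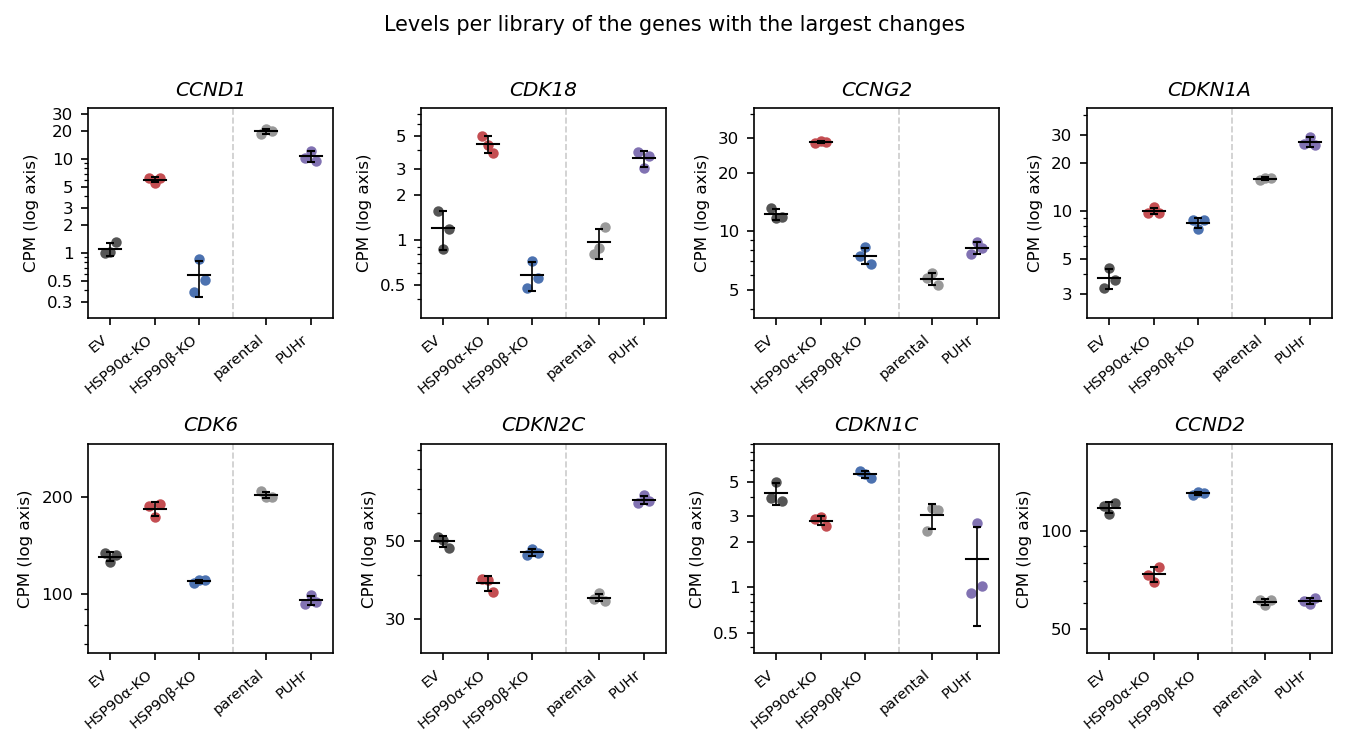
Level in CPM, on log axes, of CCND1, CDK18, CCNG2, CDKN1A, CDK6, CDKN2C, CDKN1C and CCND2 in each library (points) with the group mean and SD (n = 3); the dashed line separates the 2 tables. CDKN1A lies above its control in HSP90α-KO, HSP90β-KO and PUHr, while CCND1, CDK18 and CCNG2 part between the 2 knockouts, and for CDKN1C the PUHr libraries spread from 0.924 to 2.68.

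Of the inhibitors, CDKN1A (p21, chr6:36676460-36687337) was the only member past the fold threshold in both knockouts. It was at 3.28, 4.39 and 3.66 CPM in EV, 9.67, 10.6 and 9.75 in HSP90α-KO and 8.73, 7.68 and 8.75 in HSP90β-KO, on 69 to 221 reads. Each knockout library lay above every EV library. The log2 fold change was 1.39 ± 0.11 (adjusted p = 2.2e-11) in HSP90α-KO and 1.14 ± 0.11 (adjusted p = 2.7e-09) in HSP90β-KO, and the knockouts differed by 0.25 ± 0.11 (adjusted p = 0.047), a call of CDKN1A lost under 9 of 20 settings (adjusted p up to 0.19). CDKN1A was at 15.7, 16.1 and 16.2 CPM in parental and 26.3, 29.2 and 26.0 in PUHr, a rise of 0.76 (SE 0.059, adjusted p = 5.3e-08) without overlap. With a pseudocount of 5 CPM the values of CDKN1A were 0.77 in HSP90α-KO and 0.61 in HSP90β-KO.

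CDKN2C (p18, chr1:50960745-50974634), an inhibitor of CDK4 and CDK6, went opposite ways in HSP90α-KO and PUHr. It was at 51.3, 50.4 and 47.8 CPM in EV, 39.1, 38.7 and 35.9 in HSP90α-KO and 45.4, 47.4 and 46.2 in HSP90β-KO. HSP90α-KO fell by 0.39 on the log2 scale (SE 0.047, adjusted p = 6.2e-08), and HSP90β-KO did not pass (-0.10 ± 0.047, adjusted p = 0.088). CDKN2C was at 34.2, 35.5 and 33.9 CPM in parental and 64.0, 67.3 and 64.8 in PUHr, without overlap. The rise was 0.92 (SE 0.039, adjusted p = 7.6e-11), or 89.0%. CDKN1B (p27), which holds cyclin E and CDK2, likewise rose in PUHr, from 37.9 ± 0.869 to 51.8 ± 0.987 CPM (0.45 ± 0.039, adjusted p = 1.9e-07). In HSP90α-KO CDKN1B was lower by a small amount (-0.13 ± 0.044, adjusted p = 0.017), a call lost without an intensity trend (adjusted p = 0.052) and without EV replicate 3 (adjusted p = 0.067) or HSP90α-KO replicate 3 (adjusted p = 0.084).

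CDKN1C (p57, chr11:2883213-2885775), an imprinted inhibitor, was at 3.95, 5.06 and 3.77 CPM in EV, 2.83, 2.95 and 2.57 in HSP90α-KO and 5.91, 5.72 and 5.34 in HSP90β-KO. The 3 groups did not overlap. It fell by 0.59 on the log2 scale in HSP90α-KO (SE 0.13, adjusted p = 0.00048) and rose by 0.41 in HSP90β-KO (SE 0.13, adjusted p = 0.016), and the knockouts differed by -1.001 ± 0.13 (adjusted p = 2.8e-07). That difference of CDKN1C was within the fold threshold under 7 settings, from -0.45 with a pseudocount of 5 CPM to -0.999 with one of 0.1 CPM. The rise of CDKN1C in HSP90β-KO was lost without EV replicate 1 (adjusted p = 0.068) or 3 (adjusted p = 0.095) and without HSP90β-KO replicate 1 (adjusted p = 0.065) or 2 (adjusted p = 0.050). In the resistance table it was at 2.37, 3.398 and 3.28 CPM in parental and 0.924, 2.68 and 1.02 in PUHr. PUHr replicate 2, the library that stood apart over all genes, lay within the range of parental. The log2 fold change of CDKN1C was -1.07 ± 0.30 (adjusted p = 0.0083), and -1.53 without PUHr replicate 2 (adjusted p = 2e-08). It was above -1 without parental replicate 2 (-0.98), PUHr replicate 1 (-0.81) or PUHr replicate 3 (-0.88), and with a pseudocount of 1 CPM (-0.72) or 5 CPM (-0.30), and its adjusted p was 0.37 without the filter and 0.094 without an intensity trend.

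CDKN2D (p19), another inhibitor of CDK4 and CDK6, was at 3.14 ± 0.311 CPM in EV and 4.22 ± 0.893 in HSP90α-KO (0.40 ± 0.15, adjusted p = 0.025). That call of CDKN2D was lost without HSP90α-KO replicate 1 (0.24, adjusted p = 0.21) and without EV replicate 1 or 2. The related genes CDKN2A and CDKN2B, whose locus K562 is known to lack, are listed at 0 reads in every library of the resistance table and are not listed in the knockout table. GTF2H4, a TFIIH subunit that cells use widely, is listed at 0 there too, so that no upper limit is read from these zeros.

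Of the pocket proteins, which bind E2F factors, RB1 rose most. It was at 42.2, 39.7 and 40.1 CPM in EV, 59.7, 58.7 and 65.2 in HSP90α-KO and 47.4, 44.7 and 42.6 in HSP90β-KO, without overlap between groups. RB1 rose by 0.59 on the log2 scale in HSP90α-KO (SE 0.049, adjusted p = 9.2e-11). In HSP90β-KO the value was 0.14 ± 0.049 (adjusted p = 0.027), with the call lost with quantile normalization (adjusted p = 0.052), median centring (adjusted p = 0.13), no intensity trend (adjusted p = 0.12) and without EV replicate 2 or 3 or HSP90β-KO replicate 1 or 2 (adjusted p from 0.063 to 0.17). RBL1 (p107) was higher in HSP90α-KO (0.15, adjusted p = 0.0064) and lower in HSP90β-KO (-0.15, adjusted p = 0.0095, and 0.059 without EV replicate 3). RBL2 (p130) did not pass in any comparison, and no pocket protein passed in PUHr.

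E2F2, an activating E2F factor, was at 49.97, 51.7 and 49.97 CPM in EV, 40.5, 40.3 and 41.0 in HSP90α-KO and 56.0, 57.6 and 52.8 in HSP90β-KO. The 3 groups did not overlap. It fell by 0.32 on the log2 scale in HSP90α-KO (SE 0.043, adjusted p = 7.4e-07) and was 0.13 higher in HSP90β-KO (SE 0.043, adjusted p = 0.019). The latter call of E2F2 was lost with median centring (adjusted p = 0.12), without EV replicate 1 or 3 and without HSP90β-KO replicate 1 or 2. In the resistance table it was at 53.3, 56.6 and 55.6 CPM in parental and 41.3, 38.8 and 35.2 in PUHr, a fall of 0.52 (SE 0.052, adjusted p = 9.4e-07) without overlap. E2F1 did not pass in any comparison, and its group means lay between 53.3 and 55.8 CPM. E2F3 was 0.12 higher in PUHr (adjusted p = 0.0014, and 0.052 with median centring).

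The chromosomal neighbours of each member were compared with it, as the median of up to 40 tested genes around it whose mean log2 CPM was at least 1. For E2F2 in PUHr (chr1:23506438-23531233) the 40 neighbours had a median of -0.46, with 31 lower and 3 higher, close to the -0.52 of E2F2 itself. In HSP90α-KO, where E2F2 was at -0.32, its neighbours were at 0.14. CCNK was at 0.56 in HSP90β-KO and its neighbours at 0.21, with 20 of 40 higher. CDK1 was at 0.27 in HSP90α-KO beside a neighbour median of -0.21. CCNB2 was at 0.26 in HSP90α-KO with neighbours at 0.14, of which 21 were higher and 9 lower. Between the knockouts CCNB2 was at 0.28 and its neighbours at 0.26, with 23 higher and 8 lower. In that direct comparison the neighbours of CDK1, CCNA2 and CCNF were at -0.16, -0.12 and -0.13. Those of CCNB1 and CDKN3 were at 0.09 and 0.01. For CDK6 in PUHr the neighbours were at -0.03, for CDKN2C at -0.04 and for CCND1 at -0.04. For CDK18 the neighbours were at 0.13 in HSP90α-KO and -0.01 in PUHr. The study measured copy number separately in PUHr and HSP90β-KO cells, and the copy number of these regions was not analysed here.

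Of 66 further genes of the pathway, 61 were tested for the knockouts and 60 for resistance. In HSP90α-KO 26 were higher and 10 lower than in EV, where 27.5% and 26.6% of all genes were. In HSP90β-KO 9 were higher and 16 lower, where 17.2% of all genes were so in either direction. In PUHr 16 were higher and 20 lower than in parental, where 25.6% and 25.8% of all genes were. Between the knockouts directly, 29 were higher in HSP90α-KO and 14 lower, against 30.1% and 29.8% of all genes. The genes named here were chosen after their values were seen. CABLES1, an adaptor that links CDKs to other kinases, was at 0.391 CPM in HSP90α-KO against 9.54 in EV (-4.38 ± 0.16, adjusted p = 5.3e-18), and was higher in HSP90β-KO (0.73, adjusted p = 0.00099) and in PUHr (0.73, adjusted p = 2.8e-07). CCNY, a membrane-bound cyclin, rose by 0.82 in HSP90α-KO (adjusted p = 8.8e-18) and 0.72 in PUHr (adjusted p = 2.7e-11) and fell by 0.23 in HSP90β-KO (adjusted p = 1.3e-06). CDC20, which activates the anaphase-promoting complex, and CDC25B and CDC25C, the phosphatases that switch CDK1 on, were higher in HSP90α-KO (0.31, 0.36 and 0.24). CDC37, the kinase co-chaperone of HSP90, was at -0.14 in HSP90α-KO (adjusted p = 0.0018), 0.09 in HSP90β-KO (adjusted p = 0.074) and -0.10 in PUHr (adjusted p = 0.0071).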

How the data were processed

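RNA of K562 cells in 5 groups of 3 libraries was sequenced from a stranded mRNA kit. Per the labels and the study's methods, the authors trimmed adapters, aligned reads to GRCh38 (hg38) with STAR, assigned them to genes with featureCounts and scaled for depth with edgeR. As deposited, the values are log2 CPM with a prior count of 2, in 2 tables normalized separately. Versions, annotation and strand setting of the counting are not given in the sources used here.

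CPM and whole reads were recovered from the log2 values, and 100% of values came out whole within 0.01 reads. Entries without an identifier (30 and 114, with 0.027% to 0.0363% of reads) were left out. The deposited log2 values were tested with limma 3.58.1 (R 4.3.3) with an intensity trend, over genes that reached a log2 CPM of -1 in at least 3 libraries, and p-values were adjusted by the Benjamini-Hochberg method over all genes tested in a table. A fold change is on this log2 scale with its prior count, which understates changes of low genes. The knockout comparisons shared 1 estimate of the spread from 9 libraries, and the resistance table has 6. Thresholds were an adjusted p of 0.05 and a log2 fold change of 1.

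The rule for named genes took, per comparison, members past both thresholds, the 10 largest rises and the 10 largest falls among members past the adjusted p whose mean log2 CPM was at least 1, and CDK4, CDK6, CDK7, CCNH and MNAT1 throughout. Other members are named outside this rule to account for each role. The members and lists were chosen with earlier results of these data known. Alternatives were other filters, pseudocounts, scalings and variance models, voom on the recovered reads, a replicate block and leaving out each library. Gene models came from GENCODE 44. The fit was run on simulated reads with changes planted in genes above a set read count. Of 100 planted log2 changes of 0.3, 75 were recovered for HSP90α-KO against EV and 71 for PUHr against parental. All 100 of 1.5 were recovered in each, and 8 and 9 unplanted genes were called. The simulated spread was a fixed setting not fitted to these libraries, so these shares do not measure recovery in them.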

Additional observations from a re-analysis of the deposited data

Results flagged for a closer look

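The effects of the 2 knockouts, each against the same EV libraries, differed for 4 genes beyond the fold threshold in the direct limma contrast. The effect of HSP90α-KO minus that of HSP90β-KO was 3.24 for CCND1, 2.74 for CDK18 and 1.93 for CCNG2, each higher than EV in 3 of 3 HSP90α-KO libraries and lower in 3 of 3 HSP90β-KO libraries. It was -1.001 for CDKN1C, with the libraries on the opposite sides. CCND1 and CDK18 rest on 8 to 34 reads per library in EV and HSP90β-KO. With a pseudocount of 5 CPM the differences were 0.98 for CCND1, 0.75 for CDK18, 1.43 for CCNG2 and -0.45 for CDKN1C, so that of the 4 only CCNG2 stayed beyond the threshold.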

How the results depend on the processing

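The values of CDK6, CCND1, CDK18, CCNG2 and CDKN1A against EV or parental kept their direction under every alternative in which the gene was tested. Their adjusted p stayed under 0.05 there too. With mean log2 CPM held to at least 1, CDK18 was not tested in either table, nor CCND1 in the knockout table. Beyond both thresholds the number of members in HSP90α-KO was 2 with mean log2 CPM held to at least 1, 0 with a pseudocount of 5 CPM and 7 with a fold threshold of 0.58. In HSP90β-KO it was 0 with a pseudocount of 1 or 5 CPM, 4 with 0.58, and 1 to 3 with each library left out. Between the knockouts it was 2 with mean log2 CPM held to at least 1, 1 with 5 CPM and 8 with 0.58, and in PUHr 1 with 5 CPM and 6 with 0.58. Over all genes 1760, 764 and 2166 of 17039 passed both in HSP90α-KO, HSP90β-KO and between the knockouts, and 1660 of 16503 in PUHr. With 5 CPM these were 346, 90, 507 and 385. With 1 CPM 289 passed in HSP90β-KO. With mean log2 CPM held to at least 1, 717 of 12342 passed in HSP90α-KO and 933 between the knockouts. In PUHr 17 members passed the adjusted p without the filter and 18 without an intensity trend. Over all genes 5845 of 60510 and 7327 of 16503 did so, against 8480 of 16503 with both the filter and the trend. The median in HSP90β-KO was 0.0067 with quantile normalization and -0.0233 with median centring. Between the knockouts it was 0.1414 and 0.2562, and in PUHr 0.0027 with median centring. Values near 0 turned for CCNH in HSP90β-KO (-0.0021 with quantile normalization, -0.0227 with median centring and -0.0209 to 0.0538 with each library left out), CDK4 in HSP90β-KO (-0.0133 with median centring) and MNAT1 between the knockouts (-0.0337 with voom). The causes of these shifts were not tested. Of 1727 values of named genes under alternatives, 1659 kept direction and call, 63 lost the call and 5 turned. With the replicate number as a block, 33, 18, 35 and 27 members were called in HSP90α-KO, HSP90β-KO, between the knockouts and in PUHr. Over all genes the block gave 9049, 5665 and 10075 calls of 17039 in the knockout table and 8554 of 16503 in PUHr. Libraries of the same number did not deviate together (r from -0.1836 to 0.0993, 2 of 15 libraries closest to their own number), so the numbers were not taken as pairs. At 21584840 to 24477692 reads, CDK14, CDK20 and CCNA1 were too low to compare in the resistance table.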
